A study of Mus musculus with 6 samples.

Results

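The PI3K, AKT and mTOR pathway was followed at the transcript level through 30 of its genes in activated mouse B cells, with and without an inhibitor of the transcription factor FOXO1. The genes were taken by symbol from the 54838 gene identifiers of the count table, and each of the 30 symbols matched 1 identifier. They comprise subunits of class I PI3K, receptors and an adaptor upstream of it, the AKT, SGK and GSK3 kinases, phosphatases, the mTOR complexes, and the regulators of mTORC1.

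The tested cultures received Cpd10, described in the labels as a FOXO1 inhibitor, at 1 µM for 48 hours from day 3 to day 5, and the control cultures received DMSO (the solvent) over the same time. There were 3 libraries in each group, named Cpd10 A to C and DMSO A to C. All cells were naive B cells sorted from the spleens of 3-month-old male mice given sheep red blood cells as an immunogen 9 days before. The labels name no strain or engineered allele. Cells of 10 mice from 2 independent experiments were pooled before the culture, and every culture lasted 5 days and contained 80 ng/ml interleukin 4 and 5 µg/ml anti-CD40 antibody, which replace T cell help. The replicate letters are not tied to separate animals or cultures, so the tests weigh differences against library-to-library spread alone, and that spread may be technical.

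Class I PI3K turns the membrane lipid PIP2 into PIP3, which recruits PDK1 and AKT to the plasma membrane. AKT phosphorylates FOXO factors and keeps them out of the nucleus, and it relieves the brake that the TSC complex sets on RHEB and thereby on mTORC1. In B cells the pathway is engaged by the B cell receptor, by CD40 and by interleukin 4, and FOXO factors are known in other mouse tissues to raise transcripts of several pathway genes, among them Irs2, Rictor and the sestrin gene Sesn3.

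Libraries held 38110927 to 44859930 counts in Cpd10 and 36873204 to 42798114 in DMSO. The 8 B cell markers were all expressed, with summed levels of 10474 to 12911 CPM (counts scaled to a common library size) in Cpd10 and 12550 to 14228 CPM in DMSO. Of the markers of other cells, 5 of 6 T cell, 5 of 6 myeloid, 3 of 4 natural killer cell, 4 of 4 neutrophil, 4 of 4 erythroid and platelet, and 4 of 6 fibroblast and endothelial genes stayed under 1 CPM in every library, among them Cd3e, Lyz2 and Csf1r, and S100a8, S100a9, Elane, Ncr1, Hba-a1, Pf4 and Col3a1 were at 0. The 5 exceptions were Lck (T cell list), at 21 to 26.2 CPM in Cpd10 and 37.3 to 49 CPM in DMSO, Adgre1 (myeloid) at 8.77 to 14.2 and 13.9 to 21.1 CPM, Pecam1 (endothelial) at 4.10 to 5.83 and 10.2 to 19.5 CPM, Cdh5 (endothelial), which reached 0.837 CPM in Cpd10 and 1.37 CPM in DMSO, and Gzma (natural killer cell), which reached 3.79 and 3.26 CPM. None of these 5 passed edgeR's test by treatment alone, but with the library set as a term, described next, Lck, Adgre1 and Pecam1 were called (edgeR adjusted p = 0.00216, 0.0252 and 0.0356), each with a lower mean in Cpd10. The part of other cells in the results below was not tested. The 4 plasma cell markers summed to 252 to 807 CPM in Cpd10 and 448 to 2222 CPM in DMSO. The libraries also fell into 2 sets that crossed the treatment and are not in the labels. Set 2 holds Cpd10 B, Cpd10 C and DMSO B, and set 1 holds Cpd10 A, DMSO A and DMSO C. Values are therefore given library by library, and a fit with the set as a second term, chosen from these same counts and so exploratory, stands beside the comparison by treatment alone.

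None of the 30 genes passed the test between Cpd10 and DMSO. By edgeR's quasi-likelihood test, 0 of 30 had a Benjamini-Hochberg adjusted p under 0.05, where 0.37% of the 15136 tested genes did. DESeq2, limma-voom and edgeR without its filter on low counts also called 0 of the 30 (1.42%, 0.304% and 0.773% of all genes they tested). Before adjustment, Pik3r5 and Sgk1 (2 of the 30) had p under 0.05, both lower in Cpd10, where 4.53% of all tested genes were lower and 8.39% passed in either direction. The same 2 genes were those whose 3 Cpd10 libraries all lay under the 3 DMSO libraries, and no gene had them all above; of all tested genes, 14.6% did not overlap, 7.32% under and 7.31% above. With the set term, Pik3r5 and Irs2 were called lower and 0 were called higher, where 3.96% of all tested genes were called and 1.64% were called lower.

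Most of the genes were measured closely enough to bound the difference. The 95% interval of the log2 fold change lay within a 2-fold change either way for 22 of the 30 genes (60.4% of all tested genes), and within a 1.5-fold change for 18 of them. The 8 genes with wider intervals were Pik3cg, Pik3r5, Pik3ip1, Irs2, Igf1r, Sgk1, Phlpp1 and Deptor. Fold changes were below 0 for 20 of 30 genes (66.7%, against 50.2% of all tested genes), with a median of -0.12 on the log2 scale against -0.0012 over all tested genes. The median log2 CPM of the 30 genes had a pooled SD of 0.14 between single replicate libraries. That SD is not the error of a difference between group means, and the shift was not tested. Leaving out each library in turn, the median log2 fold change ran from -0.20 (without DMSO B) to -0.10 (without Cpd10 C). With the set term it was -0.10, against -0.011 over all tested genes. In bulk libraries fewer cells of a type and less RNA per cell cannot be told apart.

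**Figure D1:**
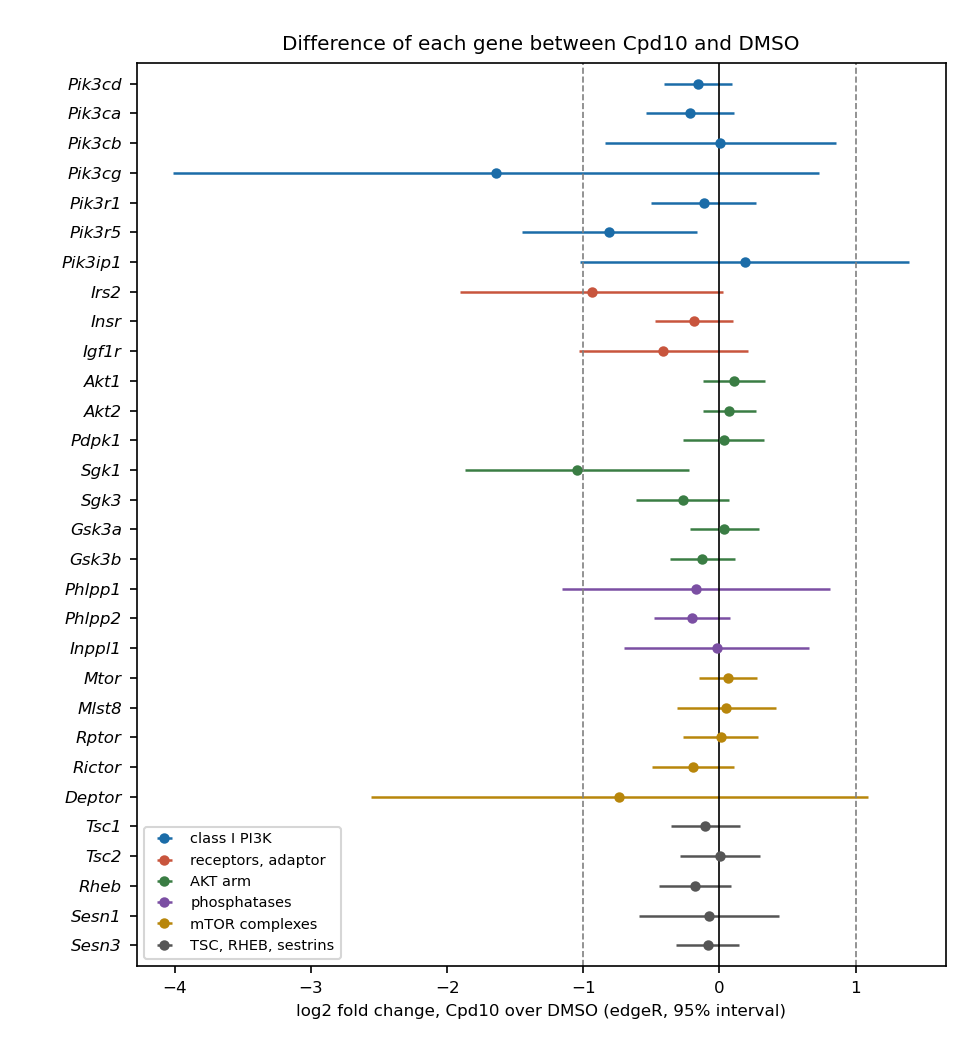
Log2 fold change of each of the 30 genes, Cpd10 over DMSO, with its 95% interval from edgeR's fit by treatment alone (3 libraries in each group), coloured by role. Dashed lines mark a 2-fold change; the intervals of Pik3r5 and Sgk1 lie below 0, and those of 22 genes stay between the dashed lines.

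Set against each other per length of exon, the genes spanned a wide range of levels. Levels between genes are given as TPM (counts per exon length, scaled to a common sum), computed here from the counts and the summed exon length of each gene. Pik3cd, the catalytic subunit that dominates in lymphocytes, was at 187 ± 17.3 TPM in Cpd10 and 210 ± 24.4 TPM in DMSO (mean ± SD, n = 3 each). Akt1 was at 179 ± 8.25 TPM in Cpd10 and 167 ± 18.5 TPM in DMSO, and the order of these 2 genes lies within their spread in Cpd10. Gsk3a came next with 90.8 ± 13.7 and 88.7 ± 8.96 TPM in Cpd10 and DMSO. Only Pik3cd and Akt1 had a mean over all libraries above 100 TPM; 19 genes lay between 10 and 100 TPM, 7 between 1 and 10 TPM, and Pik3cb and Deptor under 1 TPM.

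**Figure D2:**
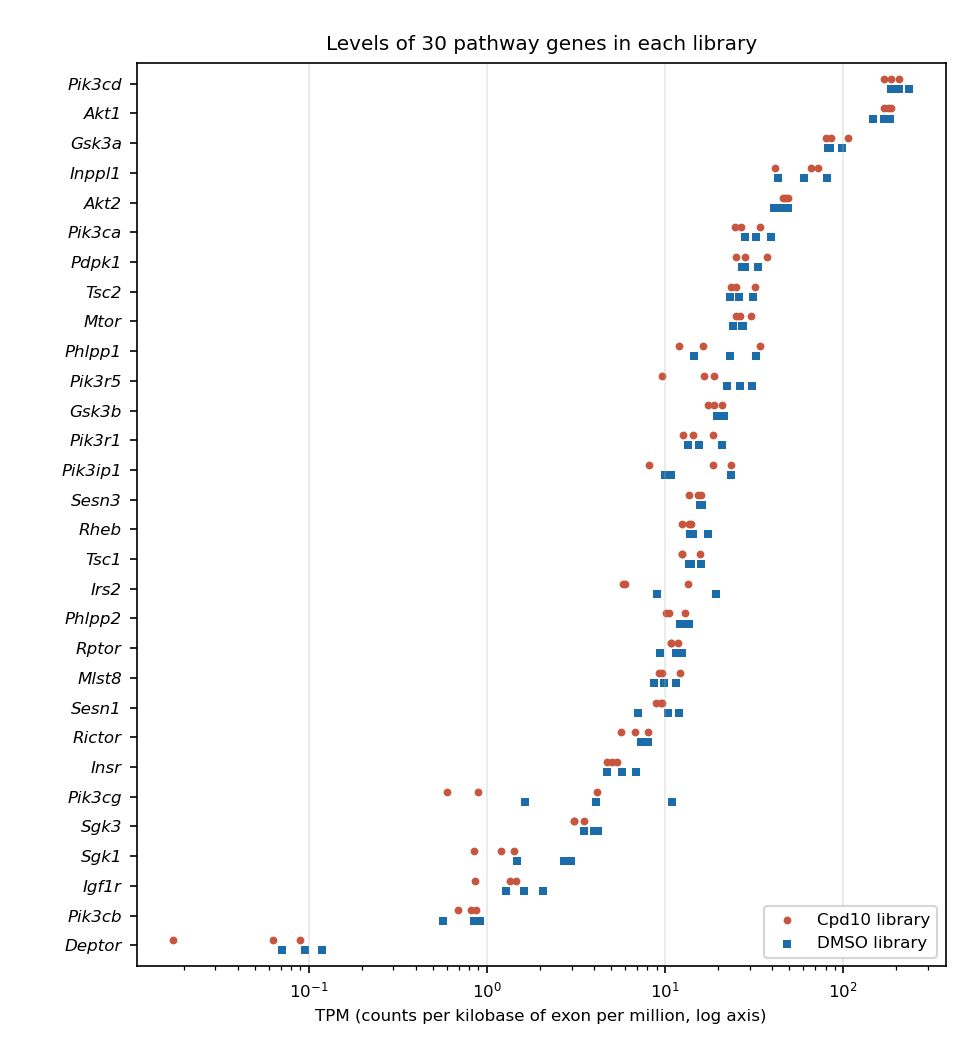
Level of each of the 30 genes in each library, in TPM on a log axis, ordered by the mean over all 6 libraries (circles, Cpd10; squares, DMSO). Pik3cd and Akt1 stand highest and Deptor lowest.

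Among the class I PI3K genes, the catalytic subunit genes made up a mixture led in every library by Pik3cd, which encodes p110 delta. Pik3cd (chromosome 4, 149649168 to 149702571, identifier ENSMUSG00000039936) had 427, 387 and 400 CPM in Cpd10 A, B and C, against 467, 409 and 478 CPM in DMSO A, B and C. The groups overlapped, and the log2 fold change was -0.16 (95% interval -0.41 to 0.094, edgeR adjusted p = 0.791). Its share of the 4 catalytic subunit transcripts, per length, was 84.0%, 85.9% and 87.5% in Cpd10 A, B and C and 84.2%, 85.9% and 82.3% in DMSO A, B and C. Pik3ca, the ubiquitous p110 alpha gene, held 13.0 ± 1.17% in Cpd10 and 13.3 ± 0.661% in DMSO, and Pik3cb, the p110 beta gene, 0.363 ± 0.0444% and 0.320 ± 0.102%. The shares of Pik3cd did not differ beyond their spread (exact two-sided permutation p = 0.4, where 3 against 3 libraries cannot go below 0.1).

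**Figure D3:**
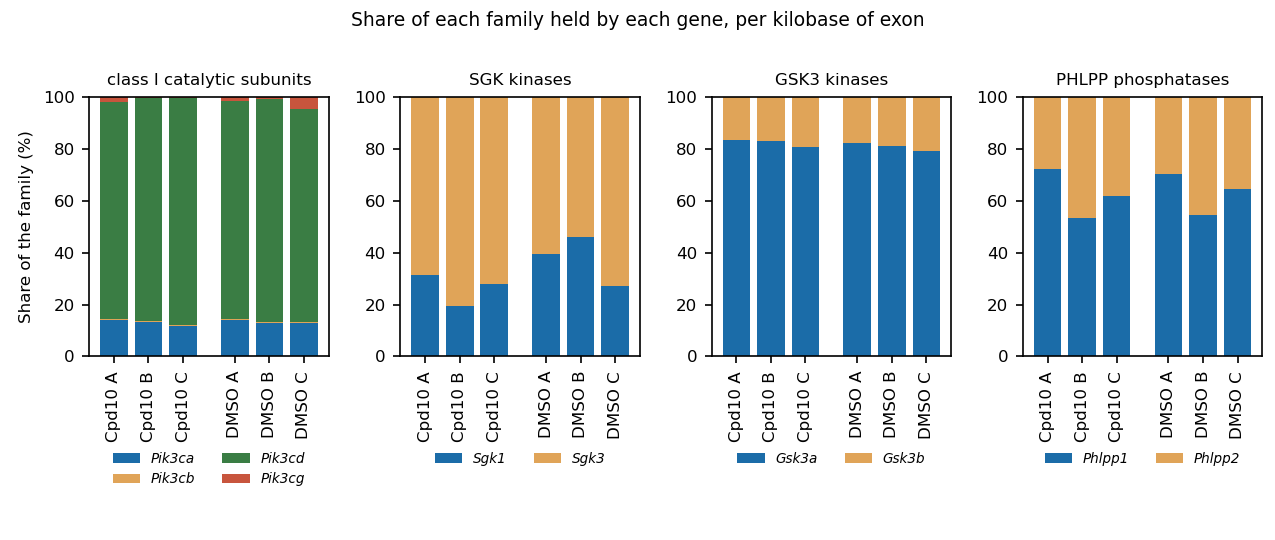
Share of each family held by each gene in each library, in percent of the family's summed counts per kilobase of exon, for the class I catalytic subunits and the SGK, GSK3 and PHLPP genes. Pik3cd and Gsk3a hold most of their families in every library, while Phlpp1 holds the least of its family in Cpd10 B and DMSO B.

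The gene of the remaining catalytic subunit, Pik3cg (p110 gamma, which answers to G protein-coupled receptors), was the most variable of the 30. It had 11.6, 1.83 and 2.61 CPM in Cpd10 A, B and C, against 10.9, 4.84 and 34.3 CPM in DMSO A, B and C. DMSO C was the highest and the 3 libraries of set 2 were the lowest. The plasma cell marker Sdc1 (syndecan 1) had 37.7, 7.41 and 6.87 CPM in the same Cpd10 libraries and 39.2, 10.7 and 87.7 CPM in the DMSO libraries, and the 4 plasma cell markers together had 807, 290 and 252 CPM, against 807, 448 and 2222 CPM, in the same order of libraries. None of these 4 markers was at 0 in all libraries, and their part in the values of Pik3cg was not tested. The log2 fold change of Pik3cg was -1.64 with an interval from -4.01 to 0.73 (edgeR adjusted p = 0.753). It was -0.56 without DMSO C and -2.90 without Cpd10 A, and it was not called without any single library. With the set term it was -1.04 (edgeR adjusted p = 0.449); of the 6 fits that also left out a library, the one without DMSO A called it (edgeR adjusted p = 0.000882) and the other 5 did not (0.350 to 0.871).

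Pik3r5 encodes p101, the regulatory subunit that couples p110 gamma to G protein beta-gamma subunits. It had 17.8, 37.8 and 32 CPM in Cpd10 A, B and C, against 46.8, 60.4 and 45.9 CPM in DMSO A, B and C (chromosome 11, 68432121 to 68497849, identifier ENSMUSG00000020901). The highest Cpd10 library lay below the lowest DMSO library, and within Cpd10 the A library was lower than B and C. The means were 29.2 ± 10.3 CPM in Cpd10 and 51.0 ± 8.09 CPM in DMSO (SD, n = 3 each), a log2 fold change of -0.81 (SE 0.27, 95% interval -1.45 to -0.16). The unadjusted p was 0.0208 and the edgeR adjusted p over all genes 0.459, so the gene did not pass. With the set term the log2 fold change was -1.08 (SE 0.14, edgeR adjusted p = 0.00109). That call held without each library in turn, with edgeR adjusted p from 5.1e-04 to 0.0400. In these fits the sets stayed as found from all libraries. Without Cpd10 A, set 1 held no Cpd10 library, so the difference rested on Cpd10 B and C against DMSO B alone. Without DMSO B it rested on Cpd10 A alone against DMSO A and C. Within set 2 the log2 ratio of the mean CPM was -0.79, and within set 1 it was -1.38; each rests on 1 library in one of the groups and has no test.

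Of the other regulators of class I PI3K, Pik3r1, which encodes p85 alpha and its shorter forms and stabilises the catalytic subunits, had 62.7, 45.9 and 50.4 CPM in Cpd10 A, B and C, against 66.9, 47.6 and 57.8 CPM in DMSO A, B and C. The groups overlapped, and in both the B library was lowest (log2 fold change -0.12, 95% interval -0.50 to 0.27, edgeR adjusted p = 0.913). Pik3ip1, whose membrane protein restrains the catalytic subunit and which is high in resting lymphocytes, had 11.5, 36.2 and 27.4 CPM in Cpd10 and 14.7, 35.5 and 15.9 CPM in DMSO. It was high in the 3 libraries of set 2 and low in the 3 of set 1, in both treatments.

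**Figure D4:**
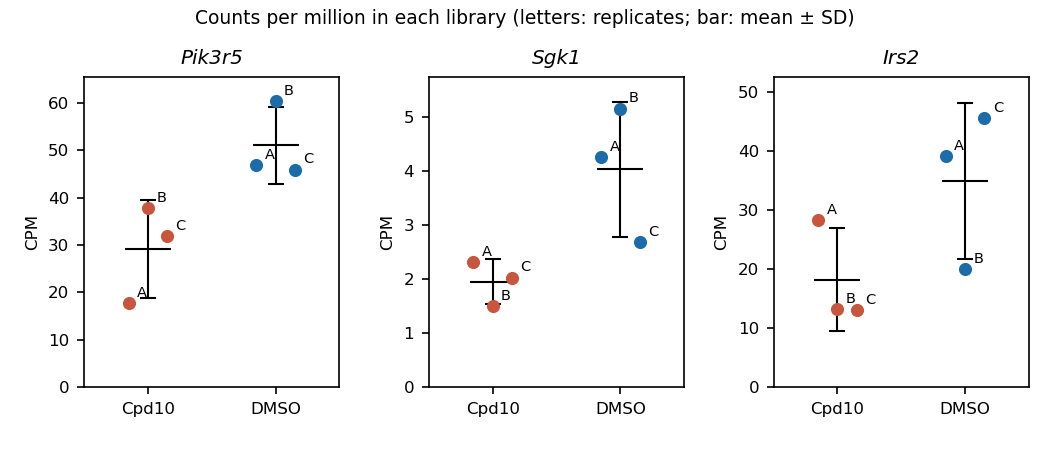
CPM of Pik3r5, Sgk1 and Irs2 in each library, Cpd10 on the left and DMSO on the right of each panel; letters name the replicates and bars give the mean ± SD. The 3 Cpd10 libraries lie below the 3 DMSO libraries for Pik3r5 and Sgk1, while for Irs2 the Cpd10 A library (28.2 CPM) lies above DMSO B (20.0 CPM).

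Upstream of PI3K, Irs2 encodes an adaptor that is phosphorylated when the insulin, IGF1 or interleukin 4 receptor is engaged and then binds p85. Irs2 (chromosome 8, 10984681 to 11008458, identifier ENSMUSG00000038894) had 28.2, 13.2 and 13.1 CPM in Cpd10 A, B and C, against 39.1, 20.0 and 45.5 CPM in DMSO A, B and C. The groups overlapped, since Cpd10 A was above DMSO B, but within each set every Cpd10 library was below every DMSO library. Each set holds only 1 library of one of the groups, and the share of all tested genes with this order was not counted. The log2 fold change was -0.94 (SE 0.41, 95% interval -1.90 to 0.026, edgeR adjusted p = 0.613) by treatment alone and -0.59 (SE 0.12, edgeR adjusted p = 0.0117) with the set term. The log2 ratio of mean CPM was -0.61 within set 2 and -0.58 within set 1. Irs2, like Pik3cg, was highest in DMSO C, the library with the most plasma cell marker counts (2222 CPM). Irs2 was low in Cpd10 B and C, where these markers had 290 and 252 CPM. In Cpd10 A and DMSO A the markers had 807 CPM each, with Irs2 at 28.2 and 39.1 CPM. In DMSO B they had 448 CPM, with Irs2 at 20.0 CPM. The part of plasma cells in the values of Irs2 was not tested. With the set term the call was lost without Cpd10 A (edgeR adjusted p = 0.237), without Cpd10 C (0.0665) and without DMSO B (0.115). The insulin receptor gene Insr stayed between 23.6 and 24.5 CPM in Cpd10 and between 24.1 and 29.9 CPM in DMSO, and Igf1r, the IGF1 receptor gene, between 4.78 and 8.46 CPM and between 7.98 and 11 CPM (log2 fold changes -0.19 and -0.41, edgeR adjusted p = 0.779 and 0.777).

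The 250 bases upstream of the RefSeq start (build GRCm38.p6) are shown for Irs2 and Pik3r5, the 2 genes called lower with the set term. They were searched with the following 50 bases for the FOXO motif GTAAACA and its reverse complement TGTTTAC, and neither gene's window held this exact form. Apart from a shorter form given further below, no other sequence that FOXO factors may bind was searched for.
Irs2, chr8:11008930-11009179, minus strand: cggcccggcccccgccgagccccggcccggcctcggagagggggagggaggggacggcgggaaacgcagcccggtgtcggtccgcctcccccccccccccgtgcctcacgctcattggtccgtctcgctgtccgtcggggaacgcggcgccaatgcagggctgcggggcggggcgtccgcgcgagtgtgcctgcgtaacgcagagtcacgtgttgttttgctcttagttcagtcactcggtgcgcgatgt
Pik3r5, chr11:68431875-68432124, plus strand: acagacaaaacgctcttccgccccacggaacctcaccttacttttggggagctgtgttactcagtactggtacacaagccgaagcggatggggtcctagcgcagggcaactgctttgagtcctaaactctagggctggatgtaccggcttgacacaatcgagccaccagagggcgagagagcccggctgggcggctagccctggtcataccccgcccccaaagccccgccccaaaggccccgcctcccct

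The motif was present in a promoter window of 3 of the 27 genes that have one in the RefSeq table, and 4.05% of all 27025 genes there have such a window. The 3 matches are shown with 10 flanking bases on each side, on the gene's strand, with the motif in capitals. They start 161 bases before the Akt1 start, 92 bases before a Pik3cg start, and at base 23 of a Sesn1 transcript. The RefSeq start of this Sesn1 transcript lies inside the GENCODE gene, which begins at 41809935.
Akt1, chr12:112675029-112675055, minus strand: tctaccctctTGTTTACactcctggtg
Pik3cg, chr12:32208546-32208572, minus strand: ttttcctaaaGTAAACAaatgatcctc
Sesn1, chr10:41810586-41810612, plus strand: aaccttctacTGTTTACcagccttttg

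These matches describe the letters of the windows only. The 3 genes had log2 fold changes of 0.11 (Akt1), -1.64 (Pik3cg) and -0.077 (Sesn1), and none passed the test.

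In the AKT arm, Akt1 had 232, 265 and 264 CPM in Cpd10 A, B and C, against 239, 243 and 223 CPM in DMSO A, B and C. Both Cpd10 libraries of set 2 were above all DMSO libraries and Cpd10 A was not, and the log2 fold change of 0.11 had an interval from -0.12 to 0.34 (edgeR adjusted p = 0.856). Akt2, better known for its part in insulin-driven glucose uptake, ranged from 111 to 122 CPM in Cpd10 and from 109 to 114 CPM in DMSO. Pdpk1, the gene of the kinase PDK1 that phosphorylates AKT and SGK, ranged from 99.5 to 135 CPM in Cpd10 and from 108 to 116 CPM in DMSO.

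Sgk1, a kinase related to AKT that shares FOXO factors as substrates and depends on mTORC2 and PDK1, was low in all libraries. Sgk1 (chromosome 10, 21882184 to 21999903, identifier ENSMUSG00000019970) had 2.31, 1.5 and 2.02 CPM in Cpd10 A, B and C, against 4.25, 5.15 and 2.68 CPM in DMSO A, B and C. Every Cpd10 library lay below every DMSO library, with DMSO C closest to them. The means were 1.94 ± 0.414 CPM in Cpd10 and 4.03 ± 1.25 CPM in DMSO, and the log2 fold change was -1.05 (SE 0.35, 95% interval -1.87 to -0.23, unadjusted p = 0.0191, edgeR adjusted p = 0.449). With the set term it was -1.07 (edgeR adjusted p = 0.108). The log2 ratio of mean CPM was -1.55 within set 2 and -0.58 within set 1. Sgk3, the family member that binds endosomal PI3P, was at 16 ± 1.88 CPM in Cpd10 and 19.3 ± 1.72 CPM in DMSO (log2 fold change -0.27, edgeR adjusted p = 0.726). Per length, Sgk1 made up 26.3 ± 6.23% of the transcripts of these 2 SGK genes in Cpd10 and 37.5 ± 9.62% in DMSO, and the groups overlapped (exact two-sided permutation p = 0.3).

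The GSK3 kinases, which AKT phosphorylates and inhibits, had log2 fold changes of 0.036 (Gsk3a, 95% interval -0.22 to 0.29) and -0.13 (Gsk3b, -0.36 to 0.11). Gsk3a held 82.5 ± 1.41% of the pair per length in Cpd10 and 80.9 ± 1.43% in DMSO. For Gsk3a, 28.3% of the exonic bases overlap an antisense gene, so its level depends on whether strand was used in counting, which the sources used here do not give. The same holds for Mlst8 (22.5%, Bricd5) and Inppl1 (18.8%, Gm10602).

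The 3 phosphatase genes each had libraries of set 2 apart from those of set 1. PHLPP1 and PHLPP2 remove the activating phosphate from the hydrophobic motif of AKT. Phlpp1 had 76.7, 29.5 and 38.4 CPM in Cpd10 A, B and C, against 70.0, 34.5 and 58.2 CPM in DMSO A, B and C. It was lowest in the 3 libraries of set 2 and higher in the 3 of set 1, and the same split held for its share of the PHLPP pair, which ran from 53.4% to 62.0% in set 2 and from 64.5% to 72.4% in set 1. Inppl1, which encodes SHIP2, a phosphatase that removes the 5-phosphate of PIP3, went the other way, with 88.6 to 167 CPM in Cpd10 and 102 to 182 CPM in DMSO and its lowest libraries in set 1. By treatment, the log2 fold changes of Phlpp1, Phlpp2 and Inppl1 were -0.17, -0.20 and -0.019 (edgeR adjusted p = 0.952, 0.749 and 0.993). Across the 30 genes, the libraries of set 2 did not overlap those of set 1 for 16 genes, 12 lower and 4 higher in set 2. Among all 15136 tested genes this was so for 35.9%, with 2588 genes lower and 2846 higher in set 2. The sets were chosen from these counts, so this is a description without a test.

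**Figure D5:**
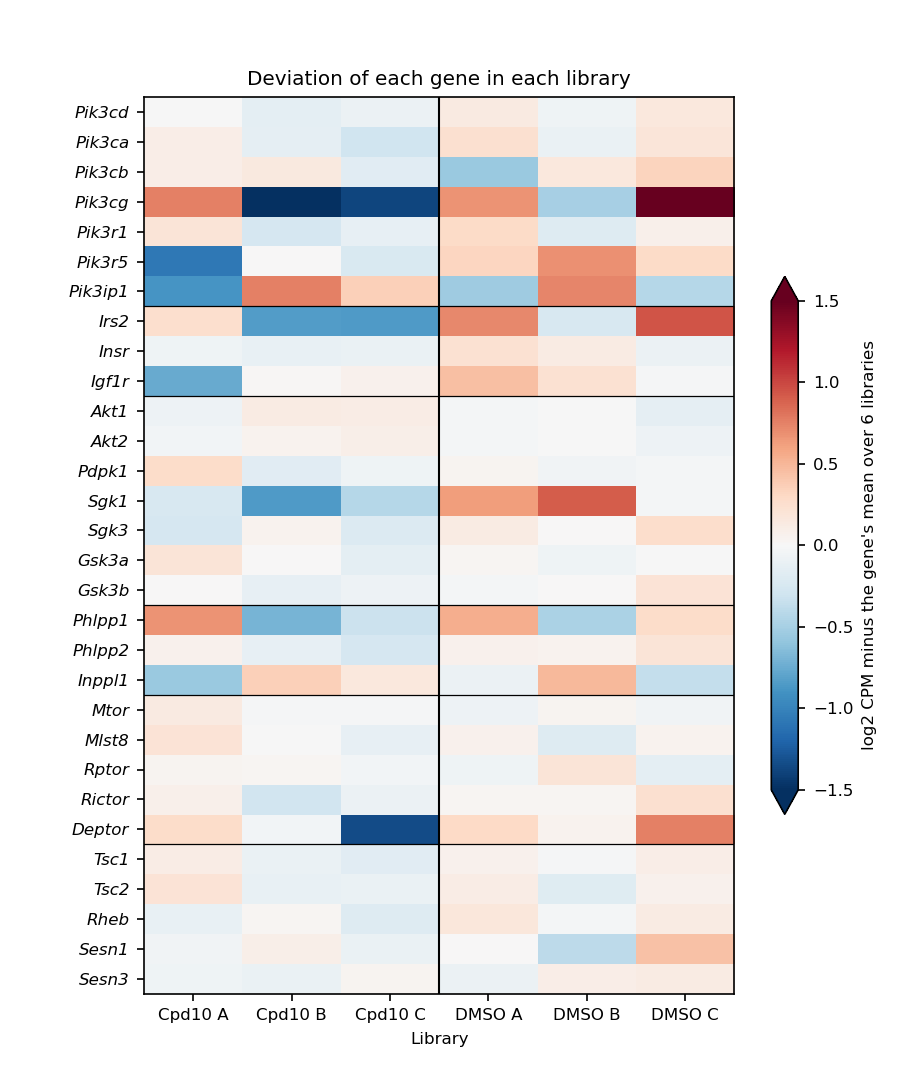
Log2 CPM of each gene in each library minus the gene's mean over the 6 libraries (red above, blue below; the colour scale ends at 1.5 either way), with genes in order of role and Cpd10 left of DMSO. Pik3cg, Irs2 and Phlpp1 are lower in Cpd10 B, Cpd10 C and DMSO B than in the other libraries, and Pik3ip1 and Inppl1 are higher there.

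Of the 5 genes of the mTOR complexes, 4 had an interval within a 2-fold change. Mtor, the kinase of both complexes, had 103, 92.2 and 91.9 CPM in Cpd10 A, B and C, against 88.6, 96.0 and 89.8 CPM in DMSO A, B and C. The groups overlapped and the log2 fold change of 0.063 had an interval from -0.15 to 0.27 (edgeR adjusted p = 0.913). Rptor, the scaffold that defines mTORC1, had 53.3, 52.8 and 50.2 CPM in Cpd10, against 49.4, 59.4 and 46.6 CPM in DMSO, with a log2 fold change of 0.0083 (95% interval -0.27 to 0.28, edgeR adjusted p = 0.991).

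Rictor, the scaffold that defines mTORC2, had 45, 34.9 and 39.9 CPM in Cpd10 A, B and C, against 43.3, 43.4 and 50.5 CPM in DMSO A, B and C. Cpd10 B and C lay below all DMSO libraries and Cpd10 A did not (log2 fold change -0.19, 95% interval -0.50 to 0.11, edgeR adjusted p = 0.782). Rptor held 62.2 ± 2.95% of the 2 scaffolds per length in Cpd10 and 58.6 ± 4.76% in DMSO (exact two-sided permutation p = 0.4). Mlst8, a subunit of both complexes, was at 15.9 ± 1.91 CPM in Cpd10 and 15.3 ± 1.52 CPM in DMSO. Deptor, an inhibitory partner of mTOR, was under 0.4 CPM in every library, too low to bound its difference within 2-fold.

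Of the regulators of mTORC1, Tsc1 and Tsc2, which together form the GTPase-activating complex for RHEB, had log2 fold changes of -0.10 and 0.0040 (95% intervals -0.35 to 0.15 and -0.29 to 0.30). Rheb, the GTPase that activates mTORC1, was at 35.8 ± 2.87 CPM in Cpd10 and 40.5 ± 2.86 CPM in DMSO (log2 fold change -0.18, interval -0.44 to 0.085). The sestrins restrain mTORC1 when leucine is short or cells are stressed. Sesn1 was at 12.9 ± 0.877 CPM in Cpd10 and 13.6 ± 3.89 CPM in DMSO, and Sesn3 at 79.1 ± 4.33 and 84.0 ± 6.63 CPM. The intervals of all 5 genes lay within a 2-fold change, and edgeR adjusted p ran from 0.770 to 0.996.

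The 7 families or pairs gave 12 comparisons of shares between Cpd10 and DMSO. Exact permutation p-values ran from 0.3 to 1, and the lowest after Benjamini-Hochberg adjustment over the 12 was 0.96.

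Other genes of the pathway, from lists that hold none of the 30, also held no call by treatment alone. Of 59 tested genes in 5 lists (PI3K subunits and adaptors, lipid phosphatases, AKT, SGK and mTORC2 partners, mTORC1 nutrient sensing, mTORC1 effectors), 0 passed edgeR's test and 6 had an unadjusted p under 0.05, 1 higher and 5 lower, where 8.39% of all genes did. Inpp4b, which acts on PI(3,4)P2, was at 12.7 ± 2.20 CPM in Cpd10 and 19.0 ± 4.32 CPM in DMSO (log2 fold change -0.58, edgeR adjusted p = 0.501).

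The 5-phosphatase gene Inpp5d (SHIP1, the main such enzyme of blood cells) was at 409 ± 21.1 CPM in Cpd10 and 429 ± 33.3 CPM in DMSO (log2 fold change -0.070, edgeR adjusted p = 0.917). Irs1, the paralogue of Irs2, was low, at 0.705 ± 0.223 CPM in Cpd10 and 1.72 ± 0.457 CPM in DMSO (log2 fold change -1.28, edgeR adjusted p = 0.469). Pik3r4, a subunit of the class III complex, had 0.28 (edgeR adjusted p = 0.686), and in the list of AKT, SGK and mTORC2 partners Mapkap1, an mTORC2 subunit gene, and Them4 had 0.090 and 0.24 (edgeR adjusted p = 0.893 and 0.917).

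Among mTORC1 regulators and effectors, Pdcd4, an inhibitor of translation that S6 kinase marks for degradation, had 32.8, 35.4 and 35.7 CPM in Cpd10 A, B and C, against 52.3, 42.7 and 49.4 CPM in DMSO A, B and C. All Cpd10 libraries lay below all DMSO libraries (log2 fold change -0.48, 95% interval -0.74 to -0.21, edgeR adjusted p = 0.211 by treatment alone; adding the set term gave 0.0375). The set-term call was lost without Cpd10 A (edgeR adjusted p = 0.692), Cpd10 B (0.0955), Cpd10 C (0.118) or DMSO C (0.0625). Castor2, from the family of arginine sensors upstream of mTORC1, was at 36.8 ± 2.80 CPM in Cpd10 and 27.4 ± 2.22 CPM in DMSO (0.43, edgeR adjusted p = 0.298), and Fnip1, a folliculin partner, at 32.9 ± 4.12 and 41.7 ± 1.92 CPM (-0.34, adjusted p = 0.509). Ulk1, the kinase that starts autophagy, had -0.22 (edgeR adjusted p = 0.633). Ddit4, a stress-induced inhibitor of mTORC1, had 84.3, 230 and 195 CPM in Cpd10 A, B and C and 80.5, 226 and 99.1 CPM in DMSO A, B and C, so that set 2 lay above set 1. Foxo1 itself had a log2 fold change of -0.22 (95% interval -0.50 to 0.052, edgeR adjusted p = 0.711); Cpd10 is described as acting on the protein, so this level does not check the treatment.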

How the data were processed

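RNA sequencing was done on 6 libraries (poly A selection and a directional kit, per the labels' protocols). The authors deposited whole-number counts per gene identifier, not normalised. STAR 2.7.10a, featureCounts 2.0.6, DESeq2 and the build GRCm38 (mm10) are named in the submitters' processing notes, but whether counting used the read strand is not stated in them. Symbols, coordinates and exon lengths came from GENCODE M21 (GRCm38), which held 54809 of 54838 identifiers. Promoter windows of 300 bases came from RefSeq (GRCm38.p6), with an entry for 27 of the 30 genes.

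Counts were compared with edgeR 4.0.16 in R 4.3.3 (TMM, filterByExpr, quasi-likelihood fit with robust estimation, treatment as the only term), with Benjamini-Hochberg adjustment over 15136 genes and calls at an adjusted p under 0.05. Log2 fold changes are Cpd10 minus DMSO; SE is their size over the square root of F, and intervals (95%) use the fit's degrees of freedom. CPM uses TMM-scaled library sizes. Alternatives were DESeq2 1.42.0, limma-voom (limma 3.58.1), other scaling, no filter, a replicate block, the set term and leaving out each library. The library sets came from the counts: among all ways to divide the libraries 3 against 3, the division was taken that left the largest number of genes nearly silent (at most 3 counts) on one side and at 50 counts or above on the other. That division had 9 such genes, and the next had 1. All named genes follow a rule: genes with an unadjusted p under 0.05, a call with the set term or groups apart, 7 core genes, and up to 2 genes with the smallest p in each further list, with Inpp5d, Ddit4 and Foxo1. Some results are not reported here. Genes and lists were chosen with earlier results of these data known. The scripts were tested on simulated data.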

Additional observations from a re-analysis of the deposited data

How the results depend on the processing

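Of the 30 genes, 0 were called under DESeq2's size factors or plain library size in edgeR, without the filter, with DESeq2, with limma-voom, with the replicate block and without any single library. With the set term 2 were called, and between 1 and 3 when a library was also left out, an alternative added after seeing the data; Sgk1 was called only without DMSO C (edgeR adjusted p = 0.0498) and Pik3cg only without DMSO A (0.000882). The count over all tested genes was 56, 194 without the filter, 356 with DESeq2, 599 with the set term, between 0 and 100 without single libraries (0 without Cpd10 C, 1 without Cpd10 B or DMSO C, 5 without DMSO A, 100 without DMSO B) and 130, 225, 343, 437, 622 or 907 with the set term and without a single library. Of the other pathway genes, mTORC1 metabolic targets included, DESeq2 called 1 and the set term 2, where 0 were called by treatment alone. Between Cpd10 and DMSO libraries of the same letter, deviations from the group means correlated at 0.309 for A, 0.432 for B and -0.315 for C. Between different letters the values ran from -0.599 (Cpd10 A with DMSO B) to 0.464 (Cpd10 A with DMSO C). Each value was positive within a library set and negative across sets, so the check cannot tell whether the letters pair the libraries. With the replicate block 0 of the 30 genes were called.

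Rptor turned to -0.023 with plain library size and -0.027 with the set term, and ran from -0.057 to 0.12 without single libraries; Pik3r1 turned to 0.012 with the set term and ran from -0.25 to 0.012. Over the 30 genes, 19 kept their sign without any single library and 11 did not. Differences in family share (percentage points, Cpd10 minus DMSO) changed sign without single libraries for Pik3ca (-0.771 to 0.363), Pik3cb (-0.0150 to 0.0791), Phlpp1 (-5.43 to 4.05), Sesn1 (-1.30 to 1.99), Sesn2 (-4.19 to 2.01), Sesn3 (-1.11 to 2.20) and Insr (-0.207 to 4.17). The promoter matches numbered 4 of 27 genes with the shorter motif TAAACA or TGTTTA, held by 15.1% of all genes. The cause of these changes was not tested. Low counts limit what can be said of Deptor.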

Other observations

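Transcripts whose products serve the metabolism that mTORC1 drives were also followed, from a list of 21 genes that holds none of the 30. Scd1, the stearoyl-CoA desaturase of fatty acid synthesis, had 471, 457 and 502 CPM in Cpd10 A, B and C, against 335, 352 and 369 CPM in DMSO A, B and C. All Cpd10 libraries were above all DMSO libraries (log2 fold change 0.44, 95% interval 0.20 to 0.67, edgeR adjusted p = 0.173, with the set term 0.0107, and DESeq2 adjusted p = 0.0451). The set-term call was lost without Cpd10 A (edgeR adjusted p = 0.169), Cpd10 C (0.0809) or DMSO B (0.0961). Its paralogue Scd2 was at 1108 ± 28 CPM in Cpd10 and 830 ± 143 CPM in DMSO (0.42, edgeR adjusted p = 0.495); the 2 genes are similar in sequence, so reads could be shared. By edgeR 0 of the 21 passed by treatment alone, and 3 had an unadjusted p under 0.05, 2 higher and 1 lower, where 0.37% and 8.39% of all tested genes did. The list's median was 0.16 on the log2 scale by treatment alone and 0.10 with the set term, against -0.0012 and -0.011 over all tested genes. The libraries of set 2 lay apart from those of set 1 for 8 of the 21 genes, 7 higher and 1 lower in set 2. Among all 15136 tested genes 35.9% did, with 2846 genes higher and 2588 lower in set 2. The count of 8 of 21 is thus close to the share over all tested genes. The 7 genes higher in set 2 were Pfkp, Ldha, Pgk1, Eno1, Slc2a1, Psat1 and Phgdh. For Hk2, a glycolysis gene like Pfkp, Ldha, Pgk1 and Eno1, the sets overlapped. These genes were named after their values were seen.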
